A study of Mus musculus with 12 samples.

Results

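Annexins, S100 proteins, galectins and the giant scaffold protein Ahnak were examined in CD8 T cells sorted from mouse spleen. The families were chosen with earlier results of these data known. Within them the genes were taken by symbol alone: Anxa, Lgals or S100 names followed by their letters and numbers, plus Ahnak. This rule found 40 of the 24421 genes in the table, namely 12 annexin, 17 S100 and 8 galectin genes, Ahnak, and 2 genes that match by name only (Lgals3bp and S100pbp, named for a binding partner). Ahnak2, which the rule also names, was not analysed here. The study, per its title, is about H1 linker histones, which bind nucleosomes and compact chromatin. Its labels list 12 samples of B, CD4 T and CD8 T cells from C57BL/6 mice in 6 groups of 2, each from a sort of 500000 cells, and a table was used here for CD8 T cells alone. The groups were WT (animals 1, female, and 4, male) and cTKO (animals 5, female, and 10, male). The abbreviation cTKO is taken here as the triple knockout of the H1 genes Hist1h1c, Hist1h1d and Hist1h1e, whose reads are given below. The labels used here give no animal age, no driver of the deletion and no litter.

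Annexins are proteins that bind acidic phospholipids when calcium is present, and they work at membranes in vesicle traffic, repair and signalling. S100 proteins are small calcium sensors of the EF-hand type that act as dimers, many of them by docking onto an annexin or a cytoskeletal protein. S100A10 pairs with annexin A2 in a complex that also binds Ahnak, and S100A11 pairs with annexin A1. Galectins bind beta-galactoside sugars on surface glycoproteins, and galectin-1 and galectin-9 are known for effects on T cell survival and adhesion. In CD8 T cells, Anxa1, Anxa2, S100a4, S100a6, S100a10, Lgals1 and Ahnak are widely used as markers of antigen-experienced cells.

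The values are those of the authors' comparison, in which the mean of a gene is its normalized read count over 4 libraries. Of the 18153 genes with any read, 18026 (99.3%) could be resolved into whole reads in each library. Libraries are called the larger and the smaller of each genotype, and values are given in the order larger WT, smaller WT, larger cTKO, smaller cTKO. The recovered reads sum to between 10259227 and 16663712 per library, and a normalized read is a read divided by the library's size factor (0.805 to 1.21). Xist had 479, 2, 4871 and 28 reads, so library size and sex cannot be told apart within a genotype. Hist1h1c had 41 and 56 reads in WT, Hist1h1d 5 and 11, and Hist1h1e 64 and 112, and each had 0 in both cTKO libraries. The header names no numerator. The negative sign of these 3 genes was used to set the direction to cTKO over WT, so they give no separate check of the labels. The p-values measure the spread between 2 animals per genotype. Fewer cells of a type and less RNA per cell cannot be told apart in RNA from sorted bulk cells.

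Among the 40 genes, Ahnak, Anxa1, Anxa2, S100a1, S100a4, S100a6 and Lgals1 were higher in cTKO CD8 T cells, and Anxa5 and Anxa7 were lower, at an adjusted p under 0.05 (DESeq2, adjusted over all tested genes) in the authors' deposited table. The other 31 did not pass: 4 had no read in any library (Anxa10, Lgals2, S100a14 and S100a16), 10 had too few reads for an adjusted p, and 17 were tested. In all, 7 of 26 tested genes were higher (26.9%) and 2 were lower (7.69%), where 9.77% and 3.61% of all 12972 tested genes were called in these directions. The background depends on the level, since at means of 1000 and above 5.8% of 3980 tested genes were higher and 5.23% lower. Of the 12 genes of the set at that level, 4 were higher and 2 lower. Since the families were chosen with earlier results known, these shares are a description and no independent evidence. On the log2 scale the median change of the 26 was 0.46 in the authors' deposited table, against 0.04 over all tested genes. S100a3, S100a8 and S100a9 entered the test through reads that lay almost wholly in cTKO libraries, so this median and these counts speak for the tested genes and not for all 40. Of 25 tested genes with recovered reads, 10 had higher normalized reads in each cTKO library than in either WT library, and 4 had lower ones. Over all 12845 such genes these shares were 31.4% and 28.2%.

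**Figure D1:**
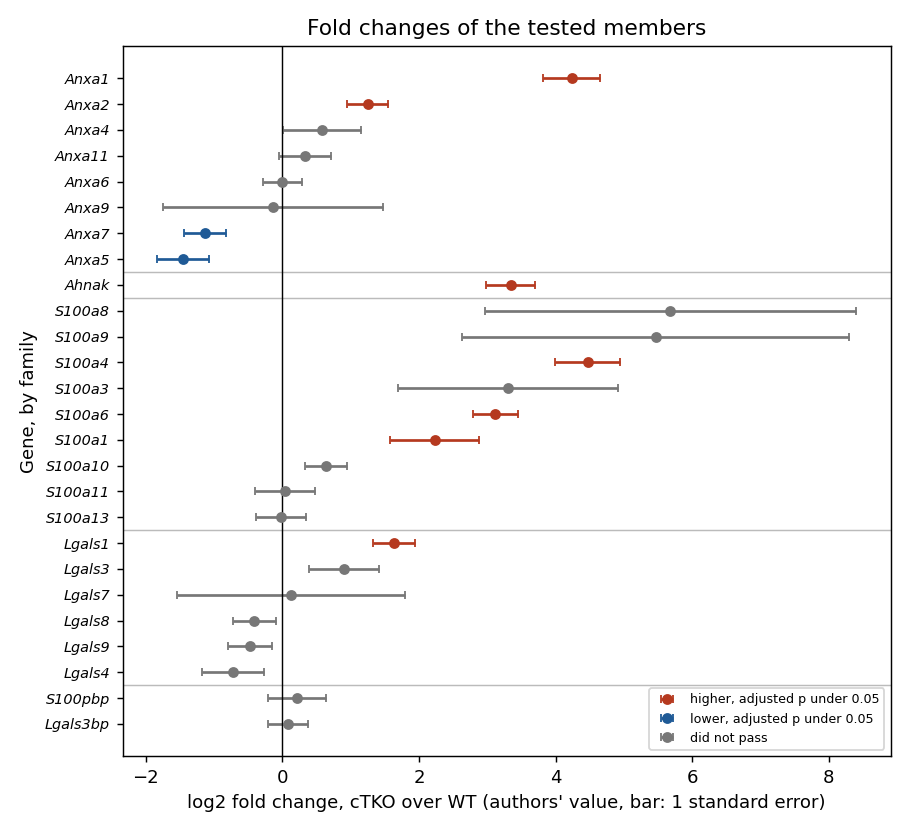
Fold changes of the 26 tested genes on the log2 scale (cTKO over WT, the authors' values, horizontal axis), grouped by family, with bars of 1 standard error. The 7 higher genes range from 1.25 for Anxa2 to 4.47 for S100a4, Anxa7 and Anxa5 lie at -1.13 and -1.45, and the bars of S100a8, S100a9, S100a3, Lgals7 and Anxa9 are long.

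The promoters of 6 of the 9 called genes are shown because their expression moved by the largest amounts on either side or because they belong to known partners. Each run is the 250 bases before the RefSeq start of the gene (GRCm38.p6), 5′ to 3′ on the gene's own strand, and the last base lies next to the start. Capitals mark matches on either strand to TATAAA, the core of the TATA box. They also mark GGGCGG, the GC box (which reads CCGCCC on the other strand), and the AP-1 motif TGACTCA (read there as TGAGTCA). The windows are chr3:90603520-90603769 (plus strand) for S100a4, chr3:90612644-90612893 (plus) for S100a6, chr19:20390672-20390921 (minus) for Anxa1, chr9:69453433-69453682 (plus) for Anxa2, chr19:8989034-8989283 (plus) for Ahnak and chr3:36475888-36476137 (minus) for Anxa5.
S100a4: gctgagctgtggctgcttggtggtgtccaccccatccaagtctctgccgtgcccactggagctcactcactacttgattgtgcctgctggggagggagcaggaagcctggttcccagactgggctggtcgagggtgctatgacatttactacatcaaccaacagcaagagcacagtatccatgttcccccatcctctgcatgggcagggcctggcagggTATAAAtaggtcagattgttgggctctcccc
S100a6: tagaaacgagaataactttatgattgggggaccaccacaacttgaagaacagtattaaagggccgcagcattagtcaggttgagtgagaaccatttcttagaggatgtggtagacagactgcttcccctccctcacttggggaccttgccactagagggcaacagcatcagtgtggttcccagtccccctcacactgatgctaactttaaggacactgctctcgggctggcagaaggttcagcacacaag
Anxa1: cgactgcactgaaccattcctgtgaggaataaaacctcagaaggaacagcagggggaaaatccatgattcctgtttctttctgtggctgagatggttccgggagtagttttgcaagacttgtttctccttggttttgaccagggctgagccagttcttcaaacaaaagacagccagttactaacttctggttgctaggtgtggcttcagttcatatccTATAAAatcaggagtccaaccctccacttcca
Anxa2: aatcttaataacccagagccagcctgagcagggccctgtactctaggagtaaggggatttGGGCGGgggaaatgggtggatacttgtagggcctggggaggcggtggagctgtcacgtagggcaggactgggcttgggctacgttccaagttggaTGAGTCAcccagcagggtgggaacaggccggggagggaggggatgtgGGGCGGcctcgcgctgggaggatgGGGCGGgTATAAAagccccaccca
Ahnak: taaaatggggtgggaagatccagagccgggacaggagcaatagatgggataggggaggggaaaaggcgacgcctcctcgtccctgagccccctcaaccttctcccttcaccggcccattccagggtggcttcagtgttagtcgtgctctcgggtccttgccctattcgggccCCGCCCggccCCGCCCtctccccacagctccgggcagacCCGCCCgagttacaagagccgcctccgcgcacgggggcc
Anxa5: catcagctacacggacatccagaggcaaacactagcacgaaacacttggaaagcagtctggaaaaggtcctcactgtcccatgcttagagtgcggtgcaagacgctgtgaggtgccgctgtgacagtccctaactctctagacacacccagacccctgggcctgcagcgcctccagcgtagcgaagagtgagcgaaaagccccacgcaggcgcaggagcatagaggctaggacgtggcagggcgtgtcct
The S100a4 run holds TATAAA beginning 31 bases before the start, and the Anxa1 run holds it 32 bases before. That of Anxa2 has TATAAA 17 bases before the start, GGGCGG at 3 places, one of them a single base upstream of TATAAA, and TGAGTCA 95 bases before. Ahnak has CCGCCC at 3 places and no TATAAA, and the runs of S100a6 and Anxa5 hold none of the motifs searched. RefSeq gave 40 promoters for 32 of the 40 genes, and none for Lgals1. TATAAA on either strand was found in 6 of the 40 (the background is 11.4% of 22010 RefSeq promoters), GGGCGG in 13 (42.8%), TGACTCA in 3 (4.25%), CACGTG in 2 (6.84%), CCACACCC in 1 (3.39%) and AGGTGTGA in 0 (1.01%). On the gene's strand, TATAAA began between 40 and 21 bases before the start in 4 of 40 promoters (Anxa1, Anxa10, S100a4 and S100a8; 10%) and in 2.36% of all, a window chosen after the sequences were seen. CG dinucleotides were few, with a median of 3 in the 40 promoters and 10 over all promoters, and their medians were 5.5 in 6 promoters of higher genes and 13 in 3 promoters of the lower genes Anxa5 and Anxa7. A match of letters is a description and not a site of binding.

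Ahnak (Entrez 66395, chromosome 19, 8989284 to 9076935, plus strand), the scaffold that links the S100A10 and annexin A2 complex to the membrane skeleton, had the most reads of the 9 called genes. Its normalized reads were 2537 and 2121 in WT and 31079 and 16156 in cTKO. Both cTKO libraries lay far above WT, and the larger of them held 1.92 times the smaller. The authors' deposited table gives a 10.1-fold rise (3.34 on the log2 scale, SE 0.35, adjusted p 1.42e-18). Divided by the length of its exons, Ahnak went from 117 to 1185 normalized reads per kb, a level in cTKO close to that of S100a4 on the same scale.

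Anxa1 (Entrez 16952, chromosome 19, 20373434 to 20390671, minus strand) codes for the glucocorticoid-induced annexin A1, which dampens inflammation through formyl peptide receptors. It had 24.7 and 37.0 normalized reads in WT and 513 and 637 in cTKO. Neither pair overlapped, and the 2 cTKO libraries differed less from each other than from WT. The authors' deposited table gives an 18.8-fold rise (log2 4.24, SE 0.42) with an adjusted p of 2.49e-21, the smallest among the 40 genes. Anxa2 (Entrez 12306, chromosome 9, 69453683 to 69491792, plus strand), the partner of S100A10 at the plasma membrane, had 1358 and 1267 normalized reads in WT and 2806 and 3444 in cTKO. These groups were apart too, at a smaller distance of 2.38-fold in the authors' deposited table (a log2 value of 1.25, SE 0.30, adjusted p 6.78e-04). Per kb of exon, Anxa2 stayed above Anxa1 in both genotypes, at 352 and 838 against 10.6 and 198.

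Anxa5 and Anxa7 went the other way. Anxa5 (Entrez 11747, chromosome 3, 36448923 to 36475887, minus strand), which binds phosphatidylserine, had 2722 and 2247 normalized reads in WT and 594 and 1227 in cTKO. Both cTKO libraries were below WT and differed from each other, the larger at 0.484 times the smaller. Anxa5 was 2.73-fold lower in the authors' deposited table (a log2 value of -1.45, SE 0.38, adjusted p 0.00207). Anxa7 (Entrez 11750, chromosome 14, 20455261 to 20480133, minus strand), a membrane-fusing annexin also called synexin, had 1733 and 1587 normalized reads in WT against 696 and 819 in cTKO. Its cTKO libraries lay closer together, and it was 2.19-fold lower in the authors' deposited table (a log2 value of -1.13, SE 0.31, adjusted p 0.00365). The ratio of Anxa5 to Anxa2 in normalized reads was therefore 2.01 and 1.77 in WT and 0.212 and 0.356 in cTKO. Anxa5 was the more abundant of these in WT, also per kb, and Anxa2 in cTKO.

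The remaining annexins gave no call. Anxa6, an annexin with a doubled core, had the highest mean of all 40 genes (15141, not divided by length), and the authors' deposited table puts its change at 0.00 on the log2 scale (SE 0.29, adjusted p 0.997). Its reads could not be assigned to libraries. Anxa11, found at RNA granules and lysosomes, had 741, 394, 1025 and 398 reads, and Anxa4 had 93, 36, 113 and 67, and the authors' deposited table lists log2 differences of 0.34 (SE 0.38) and 0.58 (SE 0.57). Low counts were seen for Anxa9 (9, 6, 14 and 1 reads) and Anxa3 (2, 4, 2 and 1), while Anxa8 and Anxa13 had a single read each, both in cTKO libraries. The annexins thus hold 2 higher, 2 lower and 4 genes that did not pass among 8 tested.

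**Figure D2:**
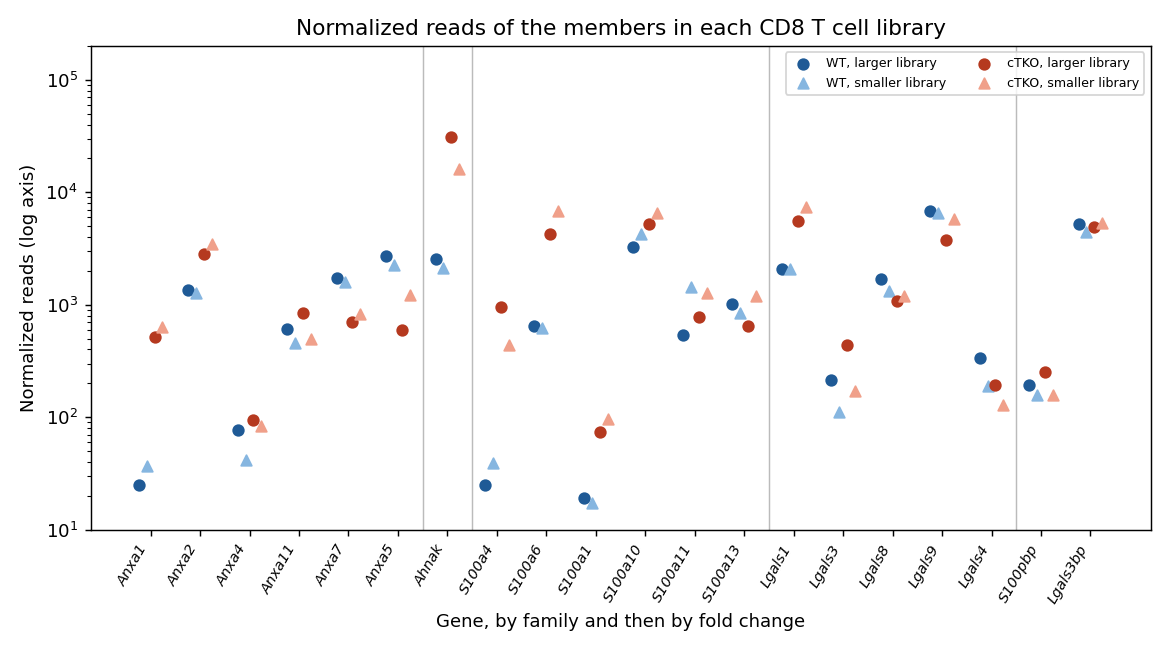
Normalized reads of 20 members in each of the 4 CD8 T cell libraries (log axis; blue for WT, red for cTKO, circles for the larger and triangles for the smaller library of each genotype). The red symbols of Anxa1, S100a4, S100a6, Ahnak, S100a1, Lgals1 and Anxa2 lie above the blue ones, those of Anxa5 and Anxa7 below, and those of S100a11, S100a13 and Lgals3bp are mixed with them.

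Within the S100 family, S100a4, S100a6 and S100a1 were higher and none was lower, out of 9 tested genes. S100a4 (Entrez 20198, chromosome 3, 90603770 to 90606045, plus strand), a partner of non-muscle myosin linked to cell motility, had 24.7 and 39.3 normalized reads in WT and 958 and 442 in cTKO. These groups did not overlap, although the larger cTKO library held 2.17 times the smaller. It rose 22.1-fold in the authors' deposited table (a log2 value of 4.47, SE 0.47, adjusted p 7.22e-19), the steepest change among the called genes of the set. S100a6 (Entrez 20200, chromosome 3, 90612894 to 90614414, plus strand), also called calcyclin, had 649 and 622 normalized reads in WT and 4244 and 6779 in cTKO. Here the smaller cTKO library was the higher, and the rise was 8.67-fold in the authors' deposited table (a log2 value of 3.12, SE 0.33, adjusted p 1.11e-18). S100a1 (Entrez 20193, chromosome 3, 90511034 to 90514330, minus strand), best known from heart muscle, was low, with 18.9 and 17.3 normalized reads in WT and 73.7 and 96.9 in cTKO. Its 4.69-fold rise in the authors' deposited table (log2 2.23, SE 0.65, adjusted p 0.00742) rests on 23, 15, 89 and 78 reads, and its 5′ end overlaps that of S100a13, on the other strand, by 98 bases. Nothing used here states the strand handling, so reads in the overlap could belong to either gene.

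S100a10 and S100a11, whose proteins pair with annexin A2 and annexin A1, did not pass. S100a10 had 3285 and 4274 normalized reads in WT and 5210 and 6580 in cTKO, so both cTKO libraries lay above WT. The authors' deposited table gives a difference of 0.64 on the log2 scale (SE 0.31, adjusted p 0.159). S100a11 had 543 and 1451 in WT and 780 and 1266 in cTKO, and its libraries overlapped. The ratio of Anxa2 to its partner S100a10 in normalized reads was 0.413 and 0.296 in WT and 0.539 and 0.523 in cTKO. The ratio of Anxa1 to S100a11 was 0.0455 and 0.0255 in WT and 0.657 and 0.503 in cTKO. S100a6 against S100a10 went from 0.198 and 0.146 to 0.815 and 1.03. Each of these ratios was higher in either cTKO library than in either WT library, and none was tested. Per kb of exon, S100a10 was at 3118 in WT and 4864 in cTKO, and S100a6 at 465 and 4032, so the gap between them was narrower in cTKO than in WT. S100a13, which takes part in the release of growth factors without a signal peptide, gave 1014, 842, 647 and 1189 normalized reads, and the authors' deposited table gives -0.02 (SE 0.37) on the log2 scale.

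S100a8 and S100a9 code for the subunits of calprotectin, the abundant cytosolic protein of neutrophils. All 22 reads of S100a8 and all 19 of S100a9 came from the larger cTKO library. Their adjusted p-values were 0.155 and 0.198 (DESeq2) in the authors' deposited table. Of 14 neutrophil markers, 9 had reads in that library alone, led by Ngp with 17, and 2 (Mmp9 and Cd177) had 1 to 3 reads in 3 libraries each. Over all genes, 1165 had a single read in that library and none elsewhere. The like counts were 102 for the larger WT, 97 for the smaller WT and 156 for the smaller cTKO library. They cover single reads only, and not counts such as the 17 to 22 reads of Ngp, S100a9 and S100a8. Csf3r, Cxcr2 and Lcn2 had 0 in every library, and the single tested marker, Ngp, did not pass. The summed normalized reads of the 14 were 0.823, 2.31, 37.3 and 2.48. The part of such cells in these reads was not tested. Among other S100 genes, S100a3 had 2, 1, 13 and 14 reads (adjusted p 0.166, DESeq2, in the authors' deposited table), with both cTKO libraries above WT. S100g had 0, 3, 9 and 2 reads, S100z 3, 7, 0 and 1, S100a2 4, 0, 4 and 1, and S100a5 3, 0, 3 and 0. S100b had 2 and S100a7a 1 in each cTKO library and both had 0 in WT.

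The S100 genes on chromosome 3 form a cluster, the block long known as part of the epidermal differentiation region. From S100a1 to S100a9 it spans 184.7 kb (chromosome 3, 90511034 to 90695721, GRCm38.p6) and holds 12 genes of the set. S100a10 and S100a11 lie outside it, further along the same chromosome. Of the 12 genes, 2 had no read and 7 were tested, of which 3 were higher (42.9%) and none lower. The 3 higher genes were not all next to each other. S100a1 lies at one end, beside S100a13, which was tested and did not pass, and S100a4 and S100a6 enclose S100a5, which had at most 3 reads in any library and no adjusted p. S100a4 starts 92.7 kb and S100a6 101.9 kb from S100a1. In the 500 kb on each side lay 25 further genes, of which 16 were tested and none passed in either direction, at 9.77% and 3.61% for all tested genes. All 16 lay on the S100a1 side. Beyond S100a9 lay only Pglyrp4, 4930529C04Rik and 9130204L05Rik, with at most 3 reads each and no adjusted p, so that flank held no tested gene. Chtop, the tested flank gene nearest to S100a1, had 3952, 3017, 4194 and 2763 reads. Whether the cluster differs from its flanks was not tested.

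**Figure D3:**
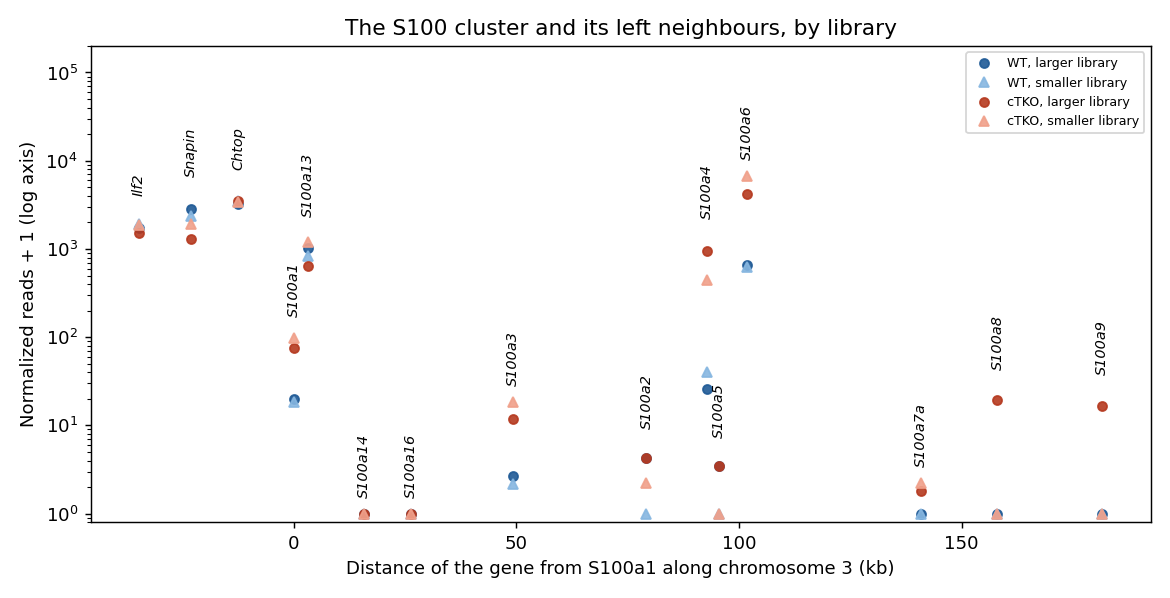
Normalized reads plus 1 (log axis) of the genes of the S100 cluster and of the neighbours Ilf2, Snapin and Chtop in each library, by distance from S100a1 in kb. S100a1, S100a4 and S100a6 have both cTKO libraries (red) above WT (blue), S100a13 and Chtop do not, S100a14 and S100a16 are at 0 reads, and S100a8 and S100a9 are above 0 in the larger cTKO library alone.

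Galectins held a single call, Lgals1. It codes for galectin-1, which dimerizes and binds glycans on CD45, CD43 and CD7, and lies on chromosome 15 (Entrez 16852, 78926725 to 78930465, plus strand). Its normalized reads were 2094 and 2063 in WT and 5530 and 7378 in cTKO. All of the cTKO values lay above WT, and it rose 3.10-fold in the authors' deposited table (a log2 value of 1.63, SE 0.30, adjusted p 2.68e-06). An overlapping long noncoding RNA, Gm30368, shares 1271 bases of its span, so part of the reads could belong to either gene. Per kb of exon, Lgals1 had the highest level of the set in cTKO (7147) among the genes with recovered reads, from 2302 in WT. Lgals9, the tandem-repeat galectin-9, had 6779 and 6563 normalized reads in WT and 3798 and 5834 in cTKO. Both cTKO libraries were below WT, as for Lgals8 (1688 and 1323 against 1081 and 1186), and neither passed (-0.47 with an SE of 0.32 and -0.41 with an SE of 0.31 as log2 values of the authors' deposited table). Per kb, Lgals9 at 3122 was above Lgals1 in WT and at 2254 below it in cTKO. Lgals3, the chimeric galectin that forms lattices on the T cell surface, had 260, 97, 530 and 138 reads, and Lgals4, a gut galectin, 408, 165, 231 and 103, with overlapping normalized levels for both. Lgals7 had 7, 5, 2 and 9 reads and Lgals12 had 3, 0, 0 and 1. Of the 2 genes matched by name only, Lgals3bp, a secreted glycoprotein that binds galectin-3, had a log2 fold change of 0.08 (SE 0.29), and S100pbp, named for S100P binding, one of 0.22 (SE 0.43), both in the authors' deposited table.

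**Figure D4:**
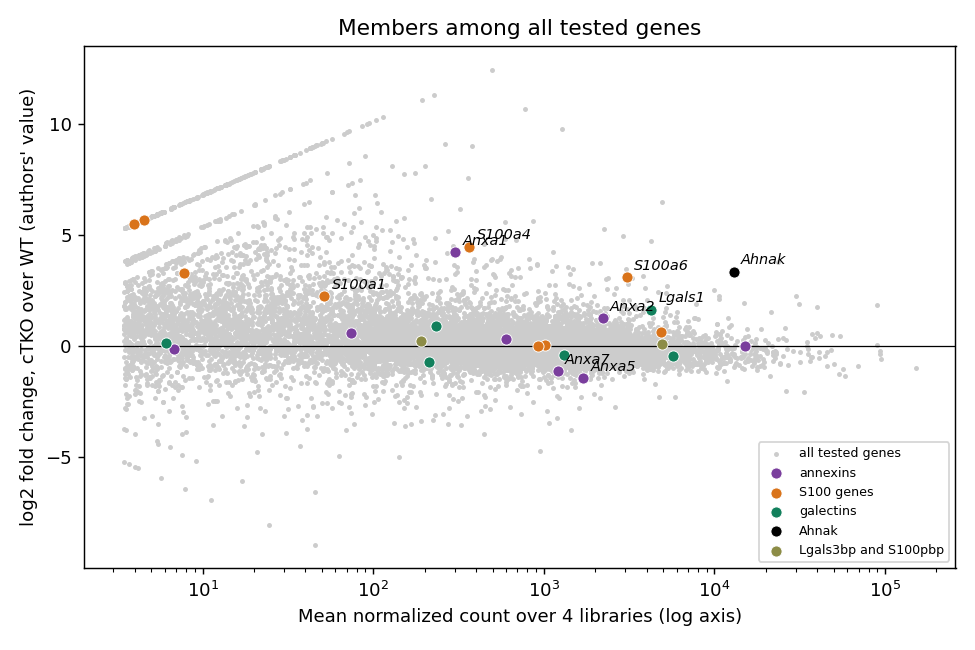
Change on the log2 scale (cTKO over WT, the authors' values) against the mean normalized count over 4 libraries (log axis) for 12972 tested genes in grey, with the members coloured by family. Ahnak, S100a6 and Lgals1 stand above most genes of like mean, and Anxa5 and Anxa7 below.

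A fit by limma on log2 normalized reads gave the same 9 calls, 7 higher and 2 lower of 25 genes with recovered reads, where 7.72% and 1.94% of 12845 genes were called. Leaving out 1 library at a time, with the lone library assumed to vary like the others, kept the direction of all 9. S100a6 stayed called in all 4 of these limma fits (adjusted p 0.00228 to 0.0405). Ahnak, S100a4 and Anxa1 lost the call without the larger cTKO library (adjusted p 0.109, 0.201 and 0.162, limma) and without the smaller one (0.068, 0.101 and 0.104, limma). S100a1, Anxa2, Anxa5, Anxa7 and Lgals1 lost it in all 4 fits, with limma adjusted p from 0.0594 for Lgals1 without the smaller WT library to 0.369 for Anxa7 without the larger WT library. S100a8 and S100a9, conversely, passed without the smaller cTKO library (adjusted p 0.0149 for each, limma), where a single library with reads remained. A block for sex, which takes the larger libraries as female from their Xist reads, leaves 1 residual degree of freedom. With it limma gave these 9 calls and S100a3 as a further higher gene (adjusted p 0.0295, limma), where 13.1% of all genes were called higher and 4.02% lower.

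Partners of these proteins mostly did not pass. In a list of 31 binding partners, proteases and receptors, 2 of 25 tested genes were higher (8%) and 1 was lower (4%), a share near the 9.77% and 3.61% over all genes, with a median of 0.10 (log2) in the authors' deposited table. Capn2, the calcium-dependent protease m-calpain, had 2370, 1776, 5217 and 3004 reads. Tlr4, a receptor for S100A8 and S100A9, had 0, 4, 113 and 58. Plaur, the urokinase receptor, fell from 721 and 189 reads to 26 and 49 (-3.32 on the log2 scale, SE 0.57 and adjusted p 2.24e-07 as listed in the authors' deposited table). Myh9, the heavy chain of the myosin that S100A4 binds, did not pass, with 4256, 3442, 14233 and 3131 reads, high in the larger cTKO library alone. Cacybp, the partner of S100A6, had both cTKO libraries below WT and did not pass, and the immunoglobulin-family receptors Bsg and Emb had overlapping libraries.

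Other calcium sensors and galectin ligands were listed as well. Of 26 tested calcium sensors outside the annexin and S100 families, 5 were higher (19.2%), namely Cpne3, Cpne7, Sytl2, Rcn1 and Sytl3. Only Syt11 was lower (3.85%), and the median was 0.09 (log2) in the authors' deposited table. Over all tested genes 9.77% were higher and 3.61% lower. Cpne3, a copine that binds phospholipids, had 369, 318, 2450 and 881 reads, and Cpne7 had 10, 12, 191 and 41. By limma 2 of the 24 calcium sensors with recovered reads were higher and 0 lower, where 7.72% and 1.94% of all genes were called. Of 32 tested galectin ligands and genes of glycan synthesis, 8 were higher (25%) and 2 lower (6.25%), against the same 9.77% and 3.61%. Their median was 0.30 in the authors' deposited table, and limma called 4 higher and 0 lower of 30 with recovered reads. Cd44, the hyaluronan receptor and a memory antigen, had 630, 733, 5464 and 2831 reads. Gcnt1 and Gcnt2, which branch O-glycans and polylactosamine chains, had 9, 6, 93 and 26, and 5, 3, 127 and 51. St6gal1, whose alpha-2,6 sialic acid caps galactose, fell (1849, 1956, 1041 and 846 reads; adjusted p 0.0285, DESeq2, in the authors' deposited table), and St3gal6, which adds alpha-2,3 sialic acid, rose (1347, 818, 2742 and 2504). Havcr2, a reported receptor for galectin-9, had 45, 11, 10 and 8 reads and did not pass.

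Genes of memory and effector CD8 T cells were mostly higher. Their list shares Cd44, Itga4 and Itgb1 with the galectin list and is no independent evidence, since it was chosen with results known. In it 24 of 30 tested genes were higher (80%) and 0 lower, against 9.77% and 3.61% of all tested genes. The median was 2.39 (log2) in the authors' deposited table. By limma 19 of 24 with recovered reads were higher. Ccl5, Cd38, Zeb2, Prdm1 and Id2 were among those with the smallest adjusted p. Cd38 had 217, 154, 2591 and 1761 reads, and Prdm1, the transcription factor Blimp-1, 93, 56, 1585 and 549. Of 15 naive T cell genes, Ccr9, Dapl1 and Ccr7 were lower (20%) and 0 higher, with a median of -0.51 in the authors' deposited table.

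**Figure D5:**
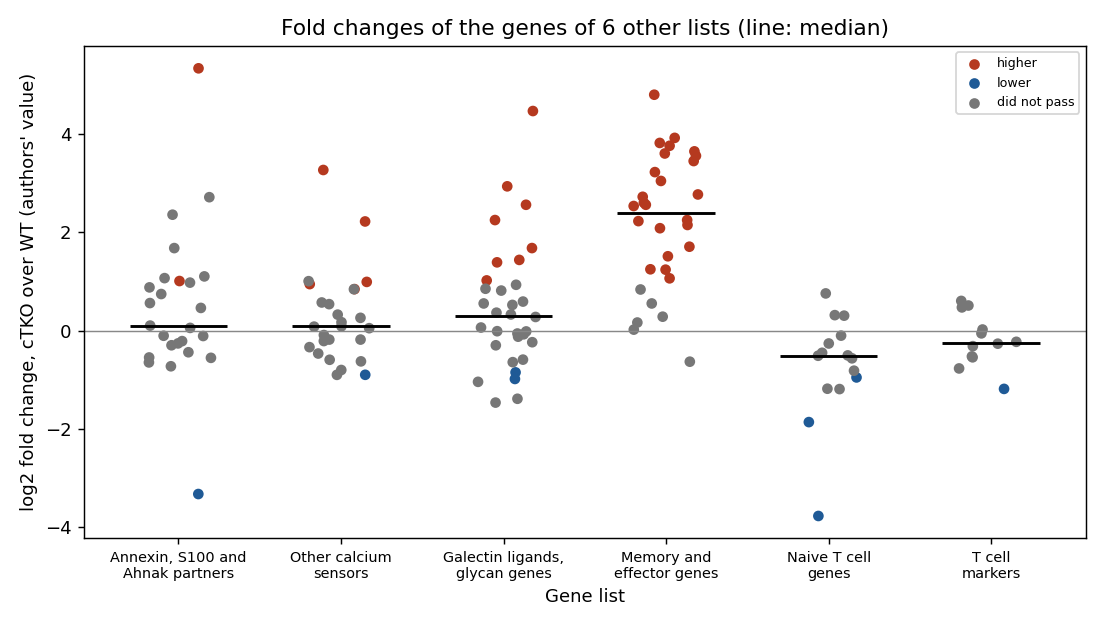
Log2 fold changes (cTKO over WT, the authors' values, vertical axis) of tested genes in 6 gene lists, coloured by the authors' call, with a line at each list's median. Most memory and effector genes lie above 1 (median 2.39), and the medians of the other 5 lists lie between -0.51 and 0.30.

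Markers of the sorted cells were present, and those of other cells were low or moved in part. For the calls below, 9.77% of all tested genes were higher and 3.61% lower. Cd8a and Cd8b1 had means of 20303 and 31813 and log2 fold changes of -0.32 and -0.27 in the authors' deposited table, and 1 of 12 T cell markers was called (Lat, lower). Of 4 CD4 and regulatory T cell markers 3 were tested, of which 1 was higher and 0 lower. All 4 summed to 90.6, 91.2, 149.1 and 73.3 normalized reads. Cd4 itself had 1, 4, 1 and 0 reads, Foxp3 had 13, 20, 9 and 9, and Cd40lg had 81, 44, 60 and 16. None of these was the marker called higher, which had 15, 11, 110 and 34 reads. Of 9 natural killer cell markers, which effector CD8 T cells share in part, 5 were higher (55.6%) and 1 lower (11.1%). Their summed normalized reads were 6170, 3976, 6969 and 6224. Most of the WT sum is Prf1, the perforin gene that cytotoxic T cells express too, which did not pass. The 8 markers without it sum to 485, 437.6, 3131 and 2239. Klrb1c, Tyrobp, Klra8, Klre1 and Klri2 rose, while Ncr1, which defines natural killer cells, had 2, 4, 22 and 1 reads. The 1 lower marker went against them, with 94, 41, 10 and 9 reads. Of 18 monocyte, macrophage and dendritic cell markers 8 were tested and 2 higher, Itgax and Itgam, and the list's sums were 242, 201, 2690 and 990. Itgax alone had 56, 44, 2429 and 509 reads, while Lyz2 had 20, 11, 43 and 6, and Fcgr1 had 0 in every library. B cell markers summed to 1550, 1141, 981.5 and 284.5 with Cd79b lower, and erythroid and platelet markers to 21.4, 110.9, 82.0 and 21.1 with none called. Of 8 stroma and epithelium markers 3 were tested, Col1a2 being higher (0, 0, 163 and 107 reads) and Pecam1 and Epcam lower. The part of these genes' source cells in the values of annexins, S100 genes and galectins was not tested.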

How the data were processed

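Polyadenylated RNA of sorted splenic CD8 T cells from 2 WT and 2 cTKO C57BL/6 mice was sequenced. STAR and DESeq2 were used, with builds mm10 and GRCm38.p6, per the submitters' processing notes; no source used here states the counting tool, annotation, strand or versions. The mean is a signal the authors made from read counts over size factors, per the file headers. Log2 fold changes with their SE, test scores, p-values and adjusted p-values were deposited by the authors. Low genes (means of 3.43 or less; 5181 of those with a p) carry no adjusted p.

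Whole reads per library were computed from the means, and above a mean of 15 also from the fold change, which a refitted 2-group model had to return within 6e-10; 65 genes with means above 20000 were not solved. limma 3.58.1 (R 4.3.3, trend) was run on log2 of normalized reads plus 0.5 as an alternative, and other calls are those of the authors' test at an adjusted p under 0.05. Levels per kb use merged GENCODE exons, and promoters are RefSeq's on GRCm38.p6. Read numbers show counting error only.

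The members and lists were chosen with earlier results of these data known. Every member is accounted for, with all values for called members and those with the highest means in each family; from each list, called genes were named, up to 6 by smallest p, plus defining markers near 0 reads. Myh9, Cacybp, Bsg, Emb, Havcr2 and Chtop were named after their values were seen. One gene of these lists is not reported here by name.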

Additional observations from a re-analysis of the deposited data

How the results depend on the processing

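The counts of 7 higher and 2 lower genes of the set were the same with no filter on the mean, with means of at least 10 or 50, at adjusted p thresholds of 0.01 and 0.1, with a fold of at least 2, with fold changes re-centred on the median of genes whose mean reached 100 (-0.10 on the log2 scale), and by limma. Leaving out 1 library in limma gave 1 (without the larger cTKO library) to 4 higher and 0 lower genes of the set. Over all genes these fits gave 215 to 688 higher and 2 to 85 lower, against 991 and 249 with all libraries. The cause of these losses was not tested. With re-centred fold changes, lower calls went to 0 among calcium sensors and among galectin ligand and glycan genes, and 1 naive T cell gene became higher. By limma, an alternative chosen after seeing the data for these lists, 2 calcium sensors and 4 galectin ligand and glycan genes were higher, and 0 were lower in both lists. No paired analysis was possible because the WT animals (1 and 4) and the cTKO animals (5 and 10) share no number, but a block for sex, chosen after seeing the data, could be fitted in limma. It gave 8 higher and 2 lower genes of the set, and 1684 higher and 517 lower over all genes. The cause was not tested. Anxa3, Anxa8, Anxa9, Anxa13, Lgals7, Lgals12 and several S100 genes had few reads, so their fold changes carry wide errors or no adjusted p.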
